A study of Mus musculus with 9 samples.

Results

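Nuclear receptors are transcription factors, many of which are switched by a small lipophilic ligand such as a steroid, a thyroid hormone, a retinoid, a bile acid or an oxysterol. Most bind DNA at copies of a short half-site, AGGTCA or a close variant, alone, as pairs of the same receptor or with a retinoid X receptor (RXR) as partner, and they work through coactivators and corepressors. In the pancreas the family includes Hnf4a, whose loss of function causes a monogenic diabetes in humans, and the REV-ERB and ROR receptors, which take part in the circadian clock.

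The 47 genes described here were chosen by a list of mouse nuclear receptor symbols, matched to gene identifiers in the GRCm38 annotation; the series measured 55536 genes in all. Of the 47, 31 had enough counts to be tested and 16 did not. The cells came from islets of C57B/L6 mice that were 12 weeks old, and 9 libraries of sorted cells fall into 3 groups of 3: a beta-enriched subset sorted as CD24 low and CD71 positive, an alpha-enriched subset sorted as CD24 low and CD71 negative, and a delta-enriched subset sorted as CD24 high. All islets were picked by hand and kept overnight in culture before sorting, and no group had a drug or a genetic change in the labels. The labels do not say whether the 3 libraries of a subset came from separate animals, so p-values measure the spread between these libraries, which may be technical. The aim of the sorts, per the labels, was to purify the endocrine subsets; the differences between them are given as beta over alpha, beta over delta and alpha over delta, and the 3 comparisons share libraries.

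Library totals ran from 5663141 to 9529920 expected counts. The subsets carried their own hormone markers: 8 delta markers, Sst and Hhex among them, summed to 15912 to 22320.1 CPM (counts divided by TMM-scaled library size) in delta libraries and to at most 219.8 CPM elsewhere. Hormone RNA of other subsets was also present. Ins2 had 21226 to 28401 CPM in beta, 2027 to 2772 CPM in alpha and 65.3 to 390.1 CPM in delta libraries. Gcg had 300.2 to 549.7 CPM in beta, 78112 to 96574 CPM in alpha and 1930.4 to 6003 CPM in delta libraries. In beta library 2 a single ribosomal RNA locus held 34.4% of all counts, against 3.15% to 5.37% in the other libraries. Acinar cell markers summed to 26.6, 78 and 30.2 CPM in beta and to 579, 86.4 and 60.2 CPM in alpha libraries 1, 2 and 3. In delta library 3 all 12 had a count and summed to 3077 CPM, against 319 and 209 CPM in delta libraries 1 and 2. Endothelial, immune and erythroid marker lists summed to under 5 CPM in every library. Mesenchymal markers summed to at most 0.514 CPM in beta, to 10.4, 47 and 15.4 CPM in alpha and to at most 1.91 CPM in delta libraries. Schwann cell markers summed to 5.94 to 11.5 CPM in beta, 11.1 to 16.4 CPM in alpha and 15.2 to 29.8 CPM in delta libraries. The duct list, which Krt7 and Spp1 lead, summed to 342 to 389.7 CPM in beta, 583 to 774 CPM in alpha and 165 to 316 CPM in delta libraries. Within it, Krt7 was highest in beta and Spp1 in alpha libraries. Sox9 went the other way, at 0 CPM in each beta library, 0, 0.504 and 1.13 CPM in alpha and 17.6, 14.4 and 25.1 CPM in delta libraries. The rest of the list had at most 11.7 CPM in any library. The part of these cells in the results was not tested. In such sorted bulk samples, fewer cells of a type and less RNA per cell cannot be told apart.

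Upstream regions of 6 genes are shown as examples of the main patterns: a receptor highest in delta libraries (Nr5a2), 3 that were lowest there (Vdr, Nr4a2 and Nr1h4), the receptor highest in alpha libraries (Rxra) and the most abundant member in beta and delta libraries (Nr1d2). Each run is the 250 bases before an annotated start of the gene, 5′ to 3′ on the gene's strand, from RefSeq on build GRCm38.p6. The starts used for Vdr, Nr1h4 and Rxra lie inside the annotated gene, downstream of its outermost start, and that of Nr1d2 by a few bases. Capitals mark the half-site AGGTCA or, on the other strand, TGACCT.
Nr5a2, chr1:136960449-136960698, minus strand: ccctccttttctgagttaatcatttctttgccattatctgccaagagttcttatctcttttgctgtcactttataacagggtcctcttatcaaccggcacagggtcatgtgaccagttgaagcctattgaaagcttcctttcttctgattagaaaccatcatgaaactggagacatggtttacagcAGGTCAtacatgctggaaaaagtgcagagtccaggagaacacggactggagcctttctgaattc
Vdr, chr15:97908297-97908546, minus strand: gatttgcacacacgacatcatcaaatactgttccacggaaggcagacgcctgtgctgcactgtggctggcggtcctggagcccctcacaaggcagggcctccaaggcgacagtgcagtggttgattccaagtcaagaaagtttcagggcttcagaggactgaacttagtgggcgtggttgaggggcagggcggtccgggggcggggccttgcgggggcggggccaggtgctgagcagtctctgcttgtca
Nr4a2, chr2:57124004-57124253, minus strand: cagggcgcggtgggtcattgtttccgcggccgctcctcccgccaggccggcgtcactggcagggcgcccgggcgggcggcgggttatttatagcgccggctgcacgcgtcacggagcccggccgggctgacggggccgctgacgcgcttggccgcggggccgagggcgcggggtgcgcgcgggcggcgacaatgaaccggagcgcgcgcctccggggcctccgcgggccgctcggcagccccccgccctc
Nr1h4, chr10:89506659-89506908, minus strand: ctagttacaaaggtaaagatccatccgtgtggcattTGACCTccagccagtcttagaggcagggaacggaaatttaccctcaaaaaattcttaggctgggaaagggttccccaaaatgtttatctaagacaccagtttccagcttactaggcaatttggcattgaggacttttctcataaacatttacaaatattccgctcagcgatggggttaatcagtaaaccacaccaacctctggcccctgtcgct
Rxra, second annotated start, chr2:27709042-27709291, plus strand: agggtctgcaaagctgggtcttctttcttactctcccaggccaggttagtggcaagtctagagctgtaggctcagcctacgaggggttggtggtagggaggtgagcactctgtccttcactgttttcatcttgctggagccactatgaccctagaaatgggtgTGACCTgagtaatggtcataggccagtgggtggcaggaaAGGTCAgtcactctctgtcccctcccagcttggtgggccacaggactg
Nr1d2, chr14:18239107-18239356, minus strand: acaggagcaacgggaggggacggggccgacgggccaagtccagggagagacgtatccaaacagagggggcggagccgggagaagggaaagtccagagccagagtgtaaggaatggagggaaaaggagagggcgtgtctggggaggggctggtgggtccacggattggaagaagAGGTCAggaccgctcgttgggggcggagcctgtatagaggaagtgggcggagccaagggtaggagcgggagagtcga
The half-site was found 64 bases before the start in the Nr5a2 window, 214 bases before it in the Nr1h4 window on the other strand, and 77 bases before it in the Nr1d2 window. The Rxra window held it at 87 bases on the other strand and at 48 bases on the gene's own strand. The Vdr and Nr4a2 windows held no exact copy, nor did the other annotated window of Rxra or that of Nr5a2, which are not printed. Of the other members highest or lowest in 1 subset, both Hnf4a windows and all 4 Rara windows lacked it. In Pparg 2 of 3 windows held it, and no window was found for Hnf4g. RefSeq windows were found for 43 of the 47 members, 64 windows in all, and 11 of these windows, at 10 genes, held the half-site on either strand, against 14.0% of 32851 windows of the same length over all genes. These are letter matches and were not tested as binding sites.

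The most abundant receptors were similar in the 3 subsets (the plot of TPM levels). On the deposited TPM scale, which corrects for length and so allows genes to be compared, Nr1d2 (REV-ERB beta, a clock repressor) averaged 21.5 ± 3.73 in beta, 18.8 ± 1.81 in alpha and 31.5 ± 8.59 TPM in delta libraries (SD, n = 3 each). Nr3c1, the glucocorticoid receptor, averaged 18.4 ± 3.75, 20.4 ± 5.23 and 15.0 ± 2.63 TPM in beta, alpha and delta libraries. These were the top 2 members in every subset, and their spreads between libraries overlapped in beta and alpha. Within libraries, Nr1d2 was above Nr3c1 in every beta and delta library and in alpha libraries 1 and 2, and below it in alpha library 3. Next in beta libraries came Rora at 13.9, Vdr at 13.4 and Nr2c2 at 12.5 TPM, 3 values within 1 SD of each other. Rora was nonetheless above Nr2c2 in each beta library, while the order of Vdr to both changed between libraries. In alpha libraries the order was Nr2c2 at 13.8, Vdr at 11.9 and Nr1h2 at 9.06 TPM, and in delta libraries Nr2c2 at 14.5, Rora at 13.8 and Nr1d1 at 12.0 TPM, and in both subsets the ranges of neighbours in this order overlapped. Vdr was above Nr1h2 in each alpha library and Rora above Nr1d1 in each delta library. Vdr, in the first 5 in beta and alpha libraries, was not among them in delta libraries, at 2.90 ± 0.942 TPM. Of the 47 members, 27 reached a mean of 1 TPM in beta, 25 in alpha and 26 in delta libraries. These TPM values are not TMM-scaled, so their spread between libraries can hold shifts of whole libraries. Nr1d2, for example, had 17.31 TPM at 150.5 CPM in beta library 2 and 22.89 TPM at 127 CPM in beta library 3.

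**Figure D1:**
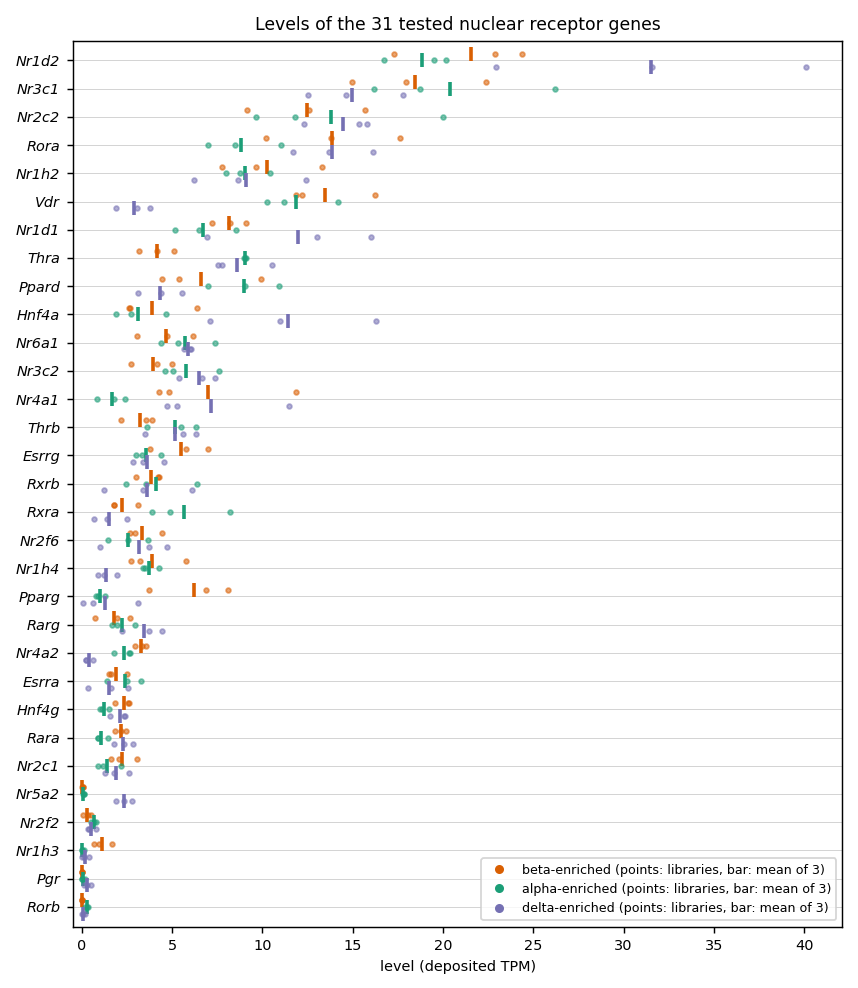
Levels of the 31 tested nuclear receptor genes in deposited TPM (linear horizontal axis), with genes ordered by their mean over the subsets; points are libraries and vertical bars are means of 3 libraries. Nr1d2 and Nr3c1 lie at the top in all subsets, and Vdr averages 13.4 TPM in beta and 11.9 TPM in alpha libraries against 2.90 TPM in delta libraries.

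Differences between subsets were tested with edgeR's quasi-likelihood test over 15896 genes with Benjamini-Hochberg adjustment at 0.05. Between beta and alpha libraries 11 of 31 tested members were called, 7 higher and 4 lower in beta, which is 35.5% against 26.6% of all genes. Between beta and delta libraries 16 were called, 6 higher and 10 lower in beta, or 51.6% against 30.6% of all genes. Between alpha and delta libraries 15 were called, 5 higher and 10 lower in alpha, or 48.4% against 24.3% of all genes. The median size of the log2 fold change over the tested members was 0.46, 0.59 and 0.82 in these 3 comparisons, beside 0.37, 0.42 and 0.37 over all genes. In all, 23 members were called in at least 1 comparison, 74.2% of those tested, against 44.0% of all genes. The libraries of the compared subsets did not overlap for 17, 18 and 17 of the 31, beside 45.5%, 42.6% and 36.1% of all genes. The shares are given as a description, since the members were not drawn at random and no test over the list was made. Without beta library 1 the beta to alpha count was 7.

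**Figure D2:**
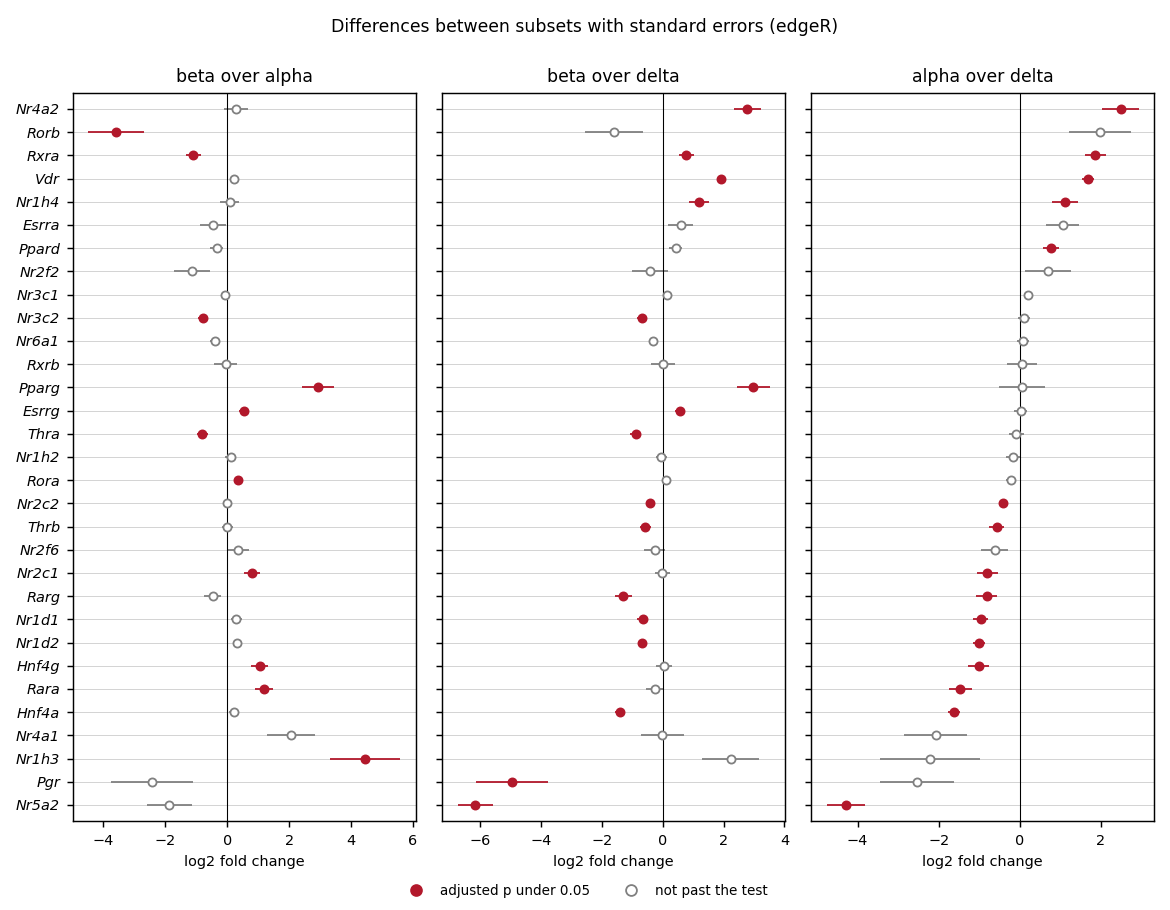
Log2 fold changes of the 31 tested members with standard errors, beta over alpha, beta over delta and alpha over delta, each panel on its own linear scale; filled red points passed edgeR's test and open grey points did not. Nr5a2 has the lowest values against delta libraries, -6.16 for beta and -4.29 for alpha, and Nr4a2, Rxra and Vdr lie at the other side in alpha over delta.

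By this test and a minimum of 2-fold against both other subsets, 9 members were highest or lowest in 1 subset, 29% of those tested against 13.9% of all genes. Nr5a2 and Hnf4a were highest in delta (a pattern of 3.89% of all genes), and Vdr, Nr4a2 and Nr1h4 were lowest in delta (1.75%). Pparg was highest in beta (2.76%), Rxra highest in alpha (1.83%), and Rara and Hnf4g lowest in alpha (2.32%). On GRCm38 (GENCODE M21 gene bounds and strand) these lie as follows: Nr5a2 at chr1:136842571-136960448 (minus), Hnf4a at chr2:163506808-163572910 (plus), Vdr at chr15:97854425-97910630 (minus), Nr4a2 at chr2:57106830-57124003 (minus), Nr1h4 at chr10:89454234-89533585 (minus). The other 4 are Pparg at chr6:115360951-115490399 (plus), Rxra at chr2:27676440-27762957 (plus), Rara at chr11:98927818-98974942 (plus) and Hnf4g at chr3:3508030-3658052 (plus). The count of 9 was 5 without beta library 1. Nr5a2, Hnf4a, Vdr, Nr4a2 and Pparg kept their place in every fit that left out 1 library, while Nr1h4, Hnf4g, Rara and Rxra did not.

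**Figure D3:**
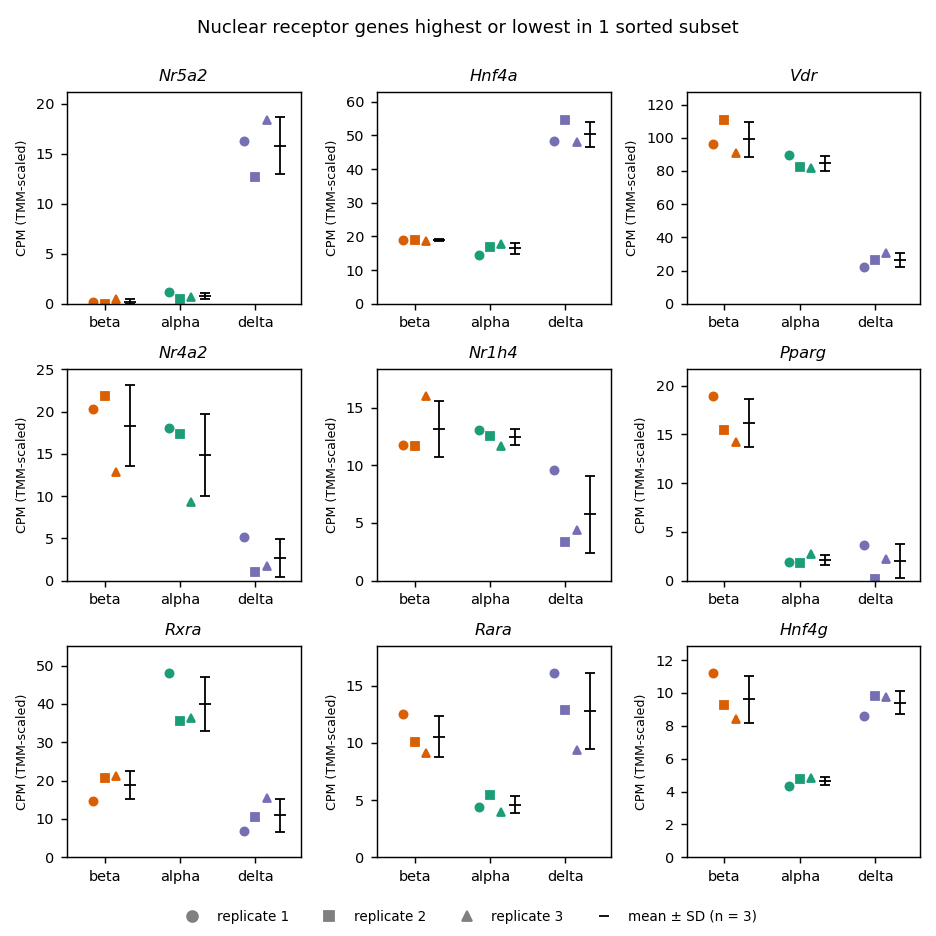
CPM after TMM scaling (linear axes from 0) of the 9 members that were highest or lowest in 1 subset, in beta, alpha and delta libraries; symbols are libraries and black bars are mean ± SD (n = 3). Nr5a2 and Hnf4a stand high in all 3 delta libraries, Vdr stands low in them, and Pparg is above 14 CPM in beta libraries alone.

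Nr5a2 and Hnf4a are orphan receptors expressed in tissues of gut and endoderm origin; Nr5a2 (LRH-1) binds as a monomer and is known for liver, gut and exocrine pancreas, and Hnf4a works as a homodimer. Nr5a2 had 0.128, 0 and 0.495 CPM in the beta libraries, which is 4 counts over the subset, 1.14, 0.504 and 0.705 CPM in the alpha libraries and 16.3, 12.7 and 18.4 CPM in the delta libraries. Every delta library was above every other library, by a wide margin. It differed by a log2 fold change of -6.16 (SE 0.58, edgeR adjusted p = 2.53e-07) for beta over delta and -4.29 (SE 0.47, edgeR adjusted p = 2.12e-06) for alpha over delta. The beta value rests on 4 counts, and the first difference was -7.45 without beta library 3. Hnf4a had 19.0, 19.0 and 18.6 CPM in beta, 14.6, 16.9 and 17.8 CPM in alpha and 48.3, 54.7 and 48.1 CPM in delta libraries. Here too the delta libraries did not overlap the others, while Hnf4a was present in all. Its log2 fold change was -1.41 (SE 0.15, edgeR adjusted p = 1.36e-06) for beta over delta and -1.62 (SE 0.15, edgeR adjusted p = 3.83e-07) for alpha over delta.

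Acinar cells also express Nr5a2, so the library with the most acinar marker RNA was left out. Without delta library 3, Nr5a2 was -6.03 for beta over delta and -4.16 for alpha over delta, and Hnf4a was -1.44 and -1.65. The pancreatic polypeptide cell markers Ppy and Pyy were also in the delta libraries, at 1476 to 2145 CPM and 2882 to 4131 CPM, and in the alpha libraries at 1656 to 2409 CPM and 1076 to 1411 CPM, against at most 60.5 CPM in beta libraries. Sertm1, the third marker of that list, had 0 CPM in each beta library, 12.0 to 15.7 CPM in alpha and 0.273 to 1.16 CPM in delta libraries. Meis2, the fourth, had 146 to 162 CPM in beta, 173 to 214 CPM in alpha and 355 to 405 CPM in delta libraries. The part of such cells in these differences was not tested. Hnf4g, a close relative of Hnf4a, had another pattern, with 11.2, 9.25 and 8.42 CPM in beta, 4.33, 4.79 and 4.8 CPM in alpha and 8.6, 9.83 and 9.77 CPM in delta libraries. The alpha libraries lay below all others. Its log2 fold change was 1.05 (SE 0.27, edgeR adjusted p = 0.00787) for beta over alpha and -1.02 (SE 0.27, edgeR adjusted p = 0.0110) for alpha over delta, and the beta to alpha call was lost without beta library 1 (adjusted p = 0.0585). Among the fits that left out 1 library, Hnf4g kept its place as lowest in alpha only without beta library 3 or delta library 1.

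Vdr, the vitamin D receptor, had 96.2, 111 and 90.6 CPM in beta, 89.5, 82.4 and 81.7 CPM in alpha and 21.9, 26.3 and 30.8 CPM in delta libraries. Delta libraries were the lowest and did not overlap the others. The fitted log2 difference was 1.91 (SE 0.14, edgeR adjusted p = 7.78e-09) for beta over delta and 1.68 (SE 0.14, edgeR adjusted p = 5.25e-08) for alpha over delta; beta and alpha did not differ past the test (0.23, SE 0.13). Nr1h4, the bile acid receptor FXR, had 11.8, 11.7 and 16.0 CPM in beta, 13.1, 12.6 and 11.7 CPM in alpha and 9.56, 3.33 and 4.37 CPM in delta libraries. Delta library 1 was close to the others and delta libraries 2 and 3 well below, though no delta library reached the others. Its log2 fold change was 1.19 (SE 0.33, edgeR adjusted p = 0.00983) for beta over delta and 1.11 (SE 0.32, edgeR adjusted p = 0.0182) for alpha over delta. The first call was lost without beta library 3 (adjusted p = 0.0574), and the second without alpha library 1, alpha library 2, delta library 2 or delta library 3 (adjusted p = 0.0512 to 0.071). Among the fits that left out 1 library, Nr1h4 kept its place as lowest in delta only without delta library 1.

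Pparg, the receptor known for adipocytes and the target of the thiazolidinedione drugs, was highest in beta libraries. It had 18.9, 15.4 and 14.2 CPM in beta, 1.94, 1.76 and 2.68 CPM in alpha and 3.69, 0.151 and 2.18 CPM in delta libraries. Beta libraries stood above all others, and delta libraries differed from each other more than alpha libraries did. The log2 fold change was 2.93 (SE 0.53, edgeR adjusted p = 0.000572) for beta over alpha and 2.98 (SE 0.53, edgeR adjusted p = 0.000452) for beta over delta, and 3.71 without delta library 1. Ppard, a broadly expressed relative, had 23.4, 23.0 and 33.2 CPM in beta, 29.3, 43.8 and 27.7 CPM in alpha and 18.6, 21.0 and 19.8 CPM in delta libraries. It was called for alpha over delta alone (0.76, SE 0.20, edgeR adjusted p = 0.00983), and that call was lost without alpha library 2 (adjusted p = 0.0774). Ppara, the receptor of liver fat oxidation, had 29 counts over all 9 libraries and was not tested.

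Of 16 tested genes of a list of PPAR targets and fatty acid oxidation enzymes, 3 were called between beta and alpha libraries, each lower in beta; against delta libraries, 1 was higher and 6 lower in beta, and 1 was higher and 2 lower in alpha. These are 18.8%, 43.8% and 18.8% of the list for beta over alpha, beta over delta and alpha over delta, against 26.6%, 30.6% and 24.3% of all genes. The median log2 fold changes were -0.20, -0.28 and -0.06, beside -0.02, -0.02 and -0.01 over all genes. Without beta library 2 and delta library 3 together, 4 were called between beta and delta. Pdk4, which shuts off pyruvate dehydrogenase, had 1.03, 0.685 and 0.660 CPM in beta, 272, 197 and 243 CPM in alpha and 12.0, 6.05 and 13.1 CPM in delta libraries. In log2 terms the difference was -8.16 (SE 0.31, edgeR adjusted p = 8.95e-11) for beta over alpha. Cd36, a fatty acid transporter, had 0.385, 0 and 0 CPM in beta, 11.7, 4.28 and 6.77 CPM in alpha and 2.73, 3.48 and 1.93 CPM in delta libraries. Acot1, which hydrolyses acyl-CoA, was also lower in beta than in both other subsets, and Acadm, a mitochondrial dehydrogenase, was lower in beta and alpha than in delta libraries (-0.85 and -0.89, SE 0.22 each).

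Of the RXR partners, Rxra was highest in alpha libraries. It had 14.6, 20.6 and 21.3 CPM in beta, 48.0, 35.5 and 36.4 CPM in alpha and 6.97, 10.4 and 15.4 CPM in delta libraries. Alpha libraries lay above all others, and the beta and delta ranges overlapped through delta library 3 alone. The place of Rxra as highest in alpha was lost without alpha library 1 or beta library 1. On the log2 scale the difference was -1.09 (SE 0.24, edgeR adjusted p = 0.00235) for beta over alpha and 1.86 (SE 0.25, edgeR adjusted p = 2.36e-05) for alpha over delta. Between beta and delta it was 0.77 (SE 0.25, edgeR adjusted p = 0.0284), a call lost in the fits without beta library 2, beta library 3, delta library 1 or delta library 2 (adjusted p = 0.0741 to 0.104). Without delta library 3 it was 1.12 (edgeR adjusted p = 0.00347), and Rxra was then also lowest in delta. Rxrb was not called, at 10.1, 10.8 and 10.4 CPM in beta, 11.4, 8.94 and 12.1 CPM in alpha and 4.10, 18.0 and 9.12 CPM in delta libraries. Rxrg had no count in any library.

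Retinoic acid receptors differed by member. Rara had 12.5, 10.1 and 9.08 CPM in beta, 4.44, 5.41 and 3.95 CPM in alpha and 16.1, 12.9 and 9.38 CPM in delta libraries, with alpha libraries the lowest. It differed by a log2 fold change of 1.20 (SE 0.29, edgeR adjusted p = 0.00434) for beta over alpha and -1.47 (SE 0.28, edgeR adjusted p = 0.000913) for alpha over delta. The place of Rara as lowest in alpha was lost without alpha library 3 or beta library 1. Rarg had 6.55, 4.8 and 8.42 CPM in beta, 9.91, 8.31 and 9.17 CPM in alpha and 12.8, 20.3 and 15.5 CPM in delta libraries. It was lower than delta in beta (-1.29, SE 0.27, edgeR adjusted p = 0.00121) and in alpha (-0.82, SE 0.26, edgeR adjusted p = 0.0277), and the alpha call was lost without any of the 3 alpha libraries or delta library 2 (adjusted p = 0.0615 to 0.119). Rarb had 5 counts in all libraries and was not tested.

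The thyroid hormone receptors were both lower in beta than in delta libraries, and Thra also lower in beta than in alpha libraries. Thra had 15.9, 15.9 and 14.9 CPM in beta, 31.2, 29.1 and 21.2 CPM in alpha and 33.2, 26.2 and 27.5 CPM in delta libraries. Beta libraries were below all others. The fitted log2 difference was -0.80 (SE 0.18, edgeR adjusted p = 0.00318) for beta over alpha and -0.89 (SE 0.19, edgeR adjusted p = 0.00117) for beta over delta. Thrb was lower than delta in both (-0.57, SE 0.18 each, edgeR adjusted p = 0.0253 for beta and 0.0298 for alpha). These calls were lost in several fits that left out 1 library: beta library 2, beta library 3, delta library 1 or delta library 2 for beta, and alpha library 1, alpha library 3, delta library 1 or delta library 2 for alpha (adjusted p = 0.0679 to 0.155). Of 19 listed genes for access of retinoids and thyroid hormone, 6 were tested: 1 was higher and 1 lower in beta than in alpha, 2 were called and lower in beta than in delta, and 1 was higher and 1 lower in alpha than in delta libraries. Each is 33.3% of the list, against 26.6%, 30.6% and 24.3% of all genes, and the median log2 fold changes were -0.40, -0.96 and -1.05. The beta to delta count was 0 without beta library 1 or 3 and 1 without delta library 1 or 2. Dio1, a deiodinase that converts the prohormone, had 73.7, 97.0 and 82.2 CPM in beta, 20.7, 24.3 and 17.9 CPM in alpha and 94.0, 108 and 79.9 CPM in delta libraries. Slc16a10, a transporter of thyroid hormone and aromatic amino acids, had 229.8, 253 and 209.9 CPM in beta, 450.5, 448 and 429 CPM in alpha and 239, 252 and 223 CPM in delta libraries. Alpha libraries were the lowest for Dio1 and the highest for Slc16a10 (beta over alpha 2.0 and -0.94, SE 0.15 and 0.09). The retinaldehyde dehydrogenase Aldh1a3 was low, at 0.514, 0.857 and 0.165 CPM in beta, 0.456, 3.02 and 0.564 CPM in alpha and 4.51, 5.59 and 0.899 CPM in delta libraries. It was lower in beta than in delta libraries (-2.80, SE 0.90, edgeR adjusted p = 0.0250), a call lost without beta library 1, beta library 3 or delta library 2 (adjusted p = 0.0854 to 0.108).

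The REV-ERB receptors Nr1d1 and Nr1d2, repressors that are switched by haem, were higher in delta libraries. Nr1d2 had 171, 150 and 127 CPM in beta, 147, 111 and 98.6 CPM in alpha and 228, 234 and 259 CPM in delta libraries, with the delta libraries above all others. The log2 fold change was -0.68 (SE 0.14, edgeR adjusted p = 0.00116) for beta over delta and -1.01 (SE 0.14, edgeR adjusted p = 4.28e-05) for alpha over delta. Nr1d1 had 36.5, 37.7 and 32.3 CPM in beta, 32.7, 25.1 and 28.6 CPM in alpha and 38.8, 61.4 and 68.7 CPM in delta libraries. Delta library 1 lay close to the beta libraries. In log2 terms the difference was -0.66 (SE 0.18, edgeR adjusted p = 0.0104) for beta over delta and -0.97 (SE 0.19, edgeR adjusted p = 0.000821) for alpha over delta; the first call was lost without beta library 3 or delta library 3 (adjusted p = 0.0559 and 0.0678). Nr1d1 and Thra share 263 bases of exon on opposite strands, and the expected counts of Nr1d1, Thra and Nr1d2 were partly not whole. In each library the expected counts of Nr1d1 and Thra added up to a whole number (287.28 and 273.72 in alpha library 1). Reads were thus shared between these genes across strands. Rora, an activator that binds the same elements, had 167, 144 and 137 CPM in beta, 134, 104 and 116 CPM in alpha and 147, 127 and 142 CPM in delta libraries. It was higher in beta than in alpha libraries (0.34, SE 0.11, edgeR adjusted p = 0.0341), a call lost without beta library 1, beta library 2, alpha library 2 or alpha library 3 (adjusted p = 0.0794 to 0.19) and with upper-quartile scaling. Rorb was low, with 0.257, 0.514 and 0 CPM in beta, 4.33, 3.02 and 2.40 CPM in alpha and 1.23, 0.151 and 1.03 CPM in delta libraries. It was called for beta over alpha, at -3.59 (SE 0.89, edgeR adjusted p = 0.00552) and at -4.39 without beta library 2.

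Of 17 clock genes, all tested, 2 were higher and 6 lower in beta than in delta libraries, 2 were higher and 9 lower in alpha than in delta libraries, and 6 were higher and 2 lower in beta than in alpha libraries. That is 47.1%, 64.7% and 47.1% of the list, against 30.6%, 24.3% and 26.6% of all genes, with median log2 fold changes of -0.39, -0.56 and 0.20. The last count was 3 without beta library 1, beta library 2, alpha library 2 or alpha library 3, and also without beta library 2 and delta library 3 together. The named ones are output factors and a period gene. Dbp, a PAR bZIP factor, had 33.5, 28.8 and 25.3 CPM in beta, 25.4, 16.2 and 17.6 CPM in alpha and 64.2, 76.8 and 64.1 CPM in delta libraries. Hlf, of the same family, had 11.3, 12.5 and 16.5 CPM in beta, 28.6, 24.9 and 22.7 CPM in alpha and 49.6, 50.8 and 44.5 CPM in delta libraries. Per3 had 52.0, 49.4 and 41.8 CPM in beta, 55.5, 47.2 and 51.8 CPM in alpha and 99.0, 156 and 129 CPM in delta libraries. All 3 delta libraries were above all others for Dbp, Tef, Hlf and Per3, with beta over delta at -1.22, -0.63, -1.85 and -1.42 and alpha over delta at -1.79, -1.09, -0.92 and -1.32 (edgeR adjusted p at most 0.00102). Clock ran the other way, at 0.70 for beta over delta (SE 0.10) and 0.47 for alpha over delta (SE 0.10). Arntl, partner of Clock, was not called in any comparison. Its beta over alpha (-0.71) and alpha over delta (0.75) differences passed without delta library 1 (edgeR adjusted p = 0.0368 and 0.00953). They also passed with no filter on low counts (edgeR adjusted p = 0.0254 and 0.0144).

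**Figure D4:**
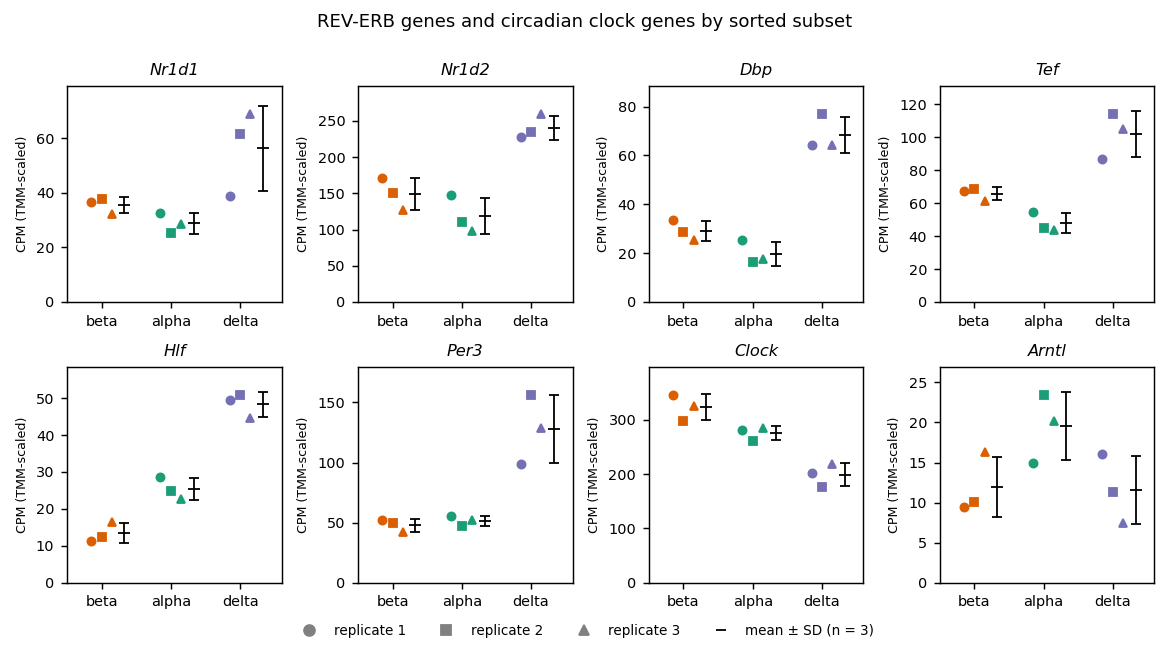
CPM after TMM scaling (linear axes from 0) of the REV-ERB genes Nr1d1 and Nr1d2 and of 6 clock genes in beta, alpha and delta libraries; symbols are libraries and black bars are mean ± SD (n = 3). Nr1d2, Dbp, Tef, Hlf and Per3 are highest in all 3 delta libraries, Clock is lowest in delta libraries on average, and Arntl overlaps between subsets.

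The oxysterol receptors are Nr1h2 and Nr1h3, LXR beta and LXR alpha. Nr1h2 was not called, at 20.3, 18.9 and 23.8 CPM in beta, 18.8, 22.8 and 16.4 CPM in alpha and 19.9, 22.5 and 22.7 CPM in delta libraries. Nr1h3 was low: 3.08, 4.28 and 1.82 CPM in beta, 0.342, 0 and 0 CPM in alpha and 1.5, 0 and 0.385 CPM in delta libraries. Over the subsets that is 60 counts in beta, 3 in alpha and 14 in delta libraries, a ratio of 24.2 for beta to alpha (95% interval of counting error 7.89 to 121). Of 10 tested LXR target genes, a list that includes Nr1h3 itself, 5 were higher and 2 lower in beta than in alpha libraries, and 5 higher and 1 lower in beta than in delta libraries. In alpha 2 were higher and 1 lower than in delta libraries. The shares are 70%, 60% and 30%, against 26.6%, 30.6% and 24.3% of all genes, and the median log2 fold changes 0.16, 0.56 and 0.15. Abca1, a cholesterol exporter, had 375, 318 and 369.7 CPM in beta, 188, 169 and 190.2 CPM in alpha and 268, 228 and 217 CPM in delta libraries. Abcg1, another exporter, was at 0.90 for beta over alpha and 0.56 for beta over delta, and Srebf1, a lipogenic factor, at 0.55 and 0.75 (SE 0.14 and 0.12, edgeR adjusted p at most 0.00488). For these 3 genes the beta libraries lay above all others. Scd1, a desaturase, was instead highest in alpha libraries, at 5.39, 8.57 and 9.57 CPM in beta, 31.4, 20.9 and 34.0 CPM in alpha and 2.73, 3.78 and 3.47 CPM in delta libraries.

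Among steroid receptors, Nr3c1 was not called, at 218, 203 and 199 CPM in beta, 233, 199 and 225 CPM in alpha and 200, 169 and 198 CPM in delta libraries. All 3 ranges overlapped, and its differences were -0.08, 0.13 and 0.21 for beta over alpha, beta over delta and alpha over delta (SE 0.10 each). Nr3c2, the mineralocorticoid receptor, had 30.8, 25.5 and 29.4 CPM in beta, 46.1, 49.9 and 52.3 CPM in alpha and 53.9, 41.1 and 43.7 CPM in delta libraries, beta being below both. On the log2 scale the difference was -0.79 (SE 0.14, edgeR adjusted p = 0.00047) for beta over alpha and -0.69 (SE 0.15, edgeR adjusted p = 0.00129) for beta over delta. Pgr, the progesterone receptor, had 2 counts in beta, 14 in alpha and 81 in delta libraries, a ratio of 36.7 for delta to beta (95% interval of counting error 9.84 to 308). The oestrogen receptors Esr1 and Esr2 had 57 and 4 counts over all libraries and were not tested.

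Genes of the glucocorticoid response were higher in beta libraries in most of their calls. Of 13 tested, 6 were called between beta and alpha libraries, each higher in beta, 7 were higher and 1 lower in beta than in delta libraries, and 2 were called between alpha and delta libraries, both lower in alpha. The shares are 46.2%, 61.5% and 15.4%, against 26.6%, 30.6% and 24.3% of all genes, and the median log2 fold changes 0.31, 0.58 and 0.05. The beta to delta count of 8 was 5 without delta library 1 and 4 without beta library 2 and delta library 3 together, and the alpha to delta count was 0 to 4 without alpha library 1, alpha library 2, beta library 1, beta library 2, delta library 1 or delta library 2. Sgk1, a kinase, had 13.2, 13.5 and 10.1 CPM in beta, 2.05, 2.52 and 1.83 CPM in alpha and 3.28, 2.27 and 5.27 CPM in delta libraries. Klf9, a zinc finger factor, had 175, 131 and 137 CPM in beta, 107, 82.5 and 95.9 CPM in alpha and 83.6, 74.7 and 70.2 CPM in delta libraries. Mt2, a metallothionein that also answers to zinc, had 87.7, 104 and 166 CPM in beta, 28.6, 30.7 and 50.5 CPM in alpha and 15.0, 14.2 and 25.8 CPM in delta libraries. Beta libraries were above all others for each of the 3, with beta over alpha at 2.51, 0.64 and 1.70 and beta over delta at 1.76, 0.96 and 2.69 (SE 0.37, 0.13 and 0.35, and 0.36, 0.13 and 0.37; edgeR adjusted p at most 0.00733). Hsp90aa1, a chaperone of steroid receptors, was higher in beta than in delta libraries by 0.40 on the log2 scale (SE 0.10, edgeR adjusted p = 0.00428).

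The orphan receptors of the TR2/TR4 and oestrogen-related groups differed by less than 1 on the log2 scale where they were called. Nr2c2 (TR4) had 128, 104 and 116 CPM in beta, 121, 112 and 118 CPM in alpha and 153, 162 and 149 CPM in delta libraries, at -0.42 for beta over delta and -0.41 for alpha over delta (SE 0.10 each, edgeR adjusted p = 0.00383 and 0.00593). Delta libraries were the highest by less than 2-fold. Nr2c2 shares 4590 bases of exon with Mrps25 on the opposite strand. The labels do not say whether the counting took account of strand, but reads of Nr1d1 and Thra were shared across strands. The Nr2c2 values may thus hold reads of Mrps25, which was not tested. The same holds for Nr2f6 with Ocel1 (1622 bases) and Nr1i3 with Tomm40l (3304 bases). Nr2c1 (TR2) was lower in alpha than in both others, at 0.79 for beta over alpha and -0.80 for alpha over delta (edgeR adjusted p = 0.0290 and 0.0298). Leaving out either of alpha libraries 1 and 2 or any of the beta libraries ended the first call (adjusted p = 0.0657 to 0.131), and either of alpha libraries 1 and 2 or delta library 2 the second (adjusted p = 0.0717 to 0.143). Esrrg, an oestrogen-related receptor that drives mitochondrial genes, had 41.6, 37.7 and 37.1 CPM in beta, 24.7, 26.4 and 29.1 CPM in alpha and 25.1, 23.4 and 30.5 CPM in delta libraries. Its log2 fold change was 0.54 for beta over alpha and 0.56 for beta over delta (SE 0.15 each, edgeR adjusted p = 0.0143 and 0.0103). The first call was lost without beta library 1, alpha library 1 or alpha library 2, and the second without beta library 1 (adjusted p = 0.0502 to 0.0742). Esrra, Nr2f2, Nr2f6 and Nr6a1 were not called in any comparison. Nr6a1 had means of 35.6 in beta, 46.6 in alpha and 44.1 CPM in delta libraries, with beta libraries below all others. Its beta over alpha difference (-0.39, SE 0.15) passed in several other fits, such as upper-quartile scaling (edgeR adjusted p = 0.0244). For alpha over delta, Esrra passed with no filter on low counts (edgeR adjusted p = 0.0212) and Nr2f6 without delta library 1 (edgeR adjusted p = 0.0093).

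The NR4A receptors are induced within minutes of depolarisation or hormone signals, and their RNA turns over quickly. Nr4a2 (NURR1) had 20.3, 21.8 and 12.9 CPM in beta, 18.0, 17.4 and 9.31 CPM in alpha and 5.19, 1.06 and 1.67 CPM in delta libraries. Delta libraries were below all others. It differed by a log2 fold change of 2.78 (SE 0.45, edgeR adjusted p = 0.000284) for beta over delta and 2.48 (SE 0.45, edgeR adjusted p = 0.000974) for alpha over delta, and 3.72 and 3.42 without delta library 1. Nr4a1 (NUR77) had 30.2, 13.9 and 11.1 CPM in beta, 6.72, 3.90 and 2.54 CPM in alpha and 38.2, 11.2 and 7.07 CPM in delta libraries. Alpha libraries were below all others, but the spread within beta and delta libraries was wide: the differences of 2.06 for beta over alpha and -2.08 for alpha over delta (SE 0.78 each) did not pass, with edgeR adjusted p = 0.104 and 0.103. The beta to alpha difference passed without delta library 1 (adjusted p = 0.00505), and the alpha to delta difference without delta library 3 (adjusted p = 0.0376). With DESeq2 both passed, at adjusted p = 0.0291 and 0.0266.

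Replicate 1 had the most Nr4a1 RNA in each subset, and so it did for the immediate early genes. The sum of 16 such genes was 1533, 929 and 878 CPM in beta, 1823, 1049 and 866 CPM in alpha and 2683, 1706 and 1455 CPM in delta libraries 1, 2 and 3. Fosb had 207, 67.2 and 21.0 CPM in beta, 118, 25.1 and 12.6 CPM in alpha and 322, 81.7 and 53.1 CPM in delta libraries 1, 2 and 3. The part of this spread in the NR4A values was not tested. Of 15 tested immediate early genes, 1 was higher and 2 lower in beta than in alpha, 1 higher and 5 lower in beta than in delta, and 1 higher and 3 lower in alpha than in delta libraries. The shares are 20.0%, 40.0% and 26.7%, against 26.6%, 30.6% and 24.3% of all genes, and the median log2 fold changes -0.31, -0.74 and -0.54. The beta to delta count of 6 was 2 without beta library 2 or 3 and 3 without delta library 1 or 2. Klf4 was highest in alpha libraries, at 3.47, 1.37 and 5.28 CPM in beta, 30.6, 28.3 and 26.4 CPM in alpha and 2.19, 0.454 and 4.11 CPM in delta libraries. Ier2 and Jund were lower in beta (-2.35 and -0.75) and in alpha (-1.73 and -0.67) than in delta libraries (SE 0.34 and 0.14, and 0.33 and 0.14). The delta libraries had the highest summed immediate early RNA at each replicate number and the lowest Nr4a2.

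**Figure D5:**
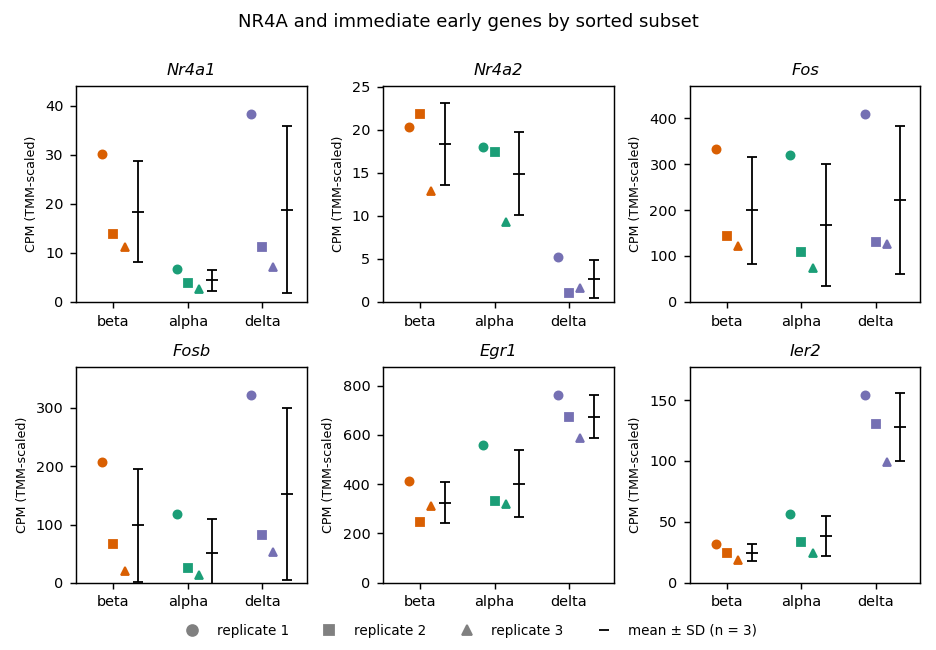
CPM after TMM scaling (linear axes from 0) of Nr4a1 and Nr4a2 and of the immediate early genes Fos, Fosb, Egr1 and Ier2 in beta, alpha and delta libraries; symbols are libraries and black bars are mean ± SD (n = 3). SD bars are clipped at 0; replicate 1 has the highest Nr4a1, Fos and Fosb in each subset, and Nr4a2 is lowest in delta libraries.

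Receptors act through coregulators, and all 20 on a list of these were tested. Beta libraries had 2 higher and 5 lower than alpha libraries and 3 higher and 4 lower than delta libraries, and alpha libraries had 6 higher and 3 lower than delta libraries, or 35.0%, 35.0% and 45.0% of the list, against 26.6%, 30.6% and 24.3% of all genes. The median log2 fold changes were -0.09, -0.01 and 0.03. Ncoa1, the steroid receptor coactivator SRC-1, had 245, 221 and 242 CPM in beta, 172, 173 and 171 CPM in alpha and 130, 139.6 and 116 CPM in delta libraries. Nrip1 (RIP140), a corepressor, had 89.5, 78.7 and 80.4 CPM in beta, 135, 110.2 and 122 CPM in alpha and 177, 153 and 162 CPM in delta libraries. These 2 ran in opposite order over the subsets without overlap, with beta over delta at 0.88 and -0.98 (SE 0.09 and 0.11, edgeR adjusted p = 1.21e-06 and 1.43e-06). Ncoa4 was higher and Ncoa7 lower in beta than in both other subsets.

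Of the 16 members not tested, 5 had no count in any library: Nr1h5, Rxrg, Nr2e1, Nr2f1 and Nr0b1. The other 11 had 1 to 57 counts in all libraries together, among them the xenobiotic receptors Nr1i2 (PXR) with 23 and Nr1i3 (CAR) with 50, Nr0b2 (SHP) with 5 and Nr5a1 (SF-1) with 1. Ppara had 17 counts in beta, 4 in alpha and 8 in delta libraries, and Nr4a3 had 2, 17 and 8. These genes fell below the filter on low counts, so their differences were not tested, and a count of 0 in a library allows up to 3 counts.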

How the data were processed

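For each library the authors deposited a gene table made with RSEM, holding expected counts, TPM, FPKM and effective lengths per gene, per the file headers, and a normalised signal table that was not used here. The submitters' processing notes name the build GRCm38.p6, DESeq2 1.22.1, R 3.5.1, RSEM and STAR 2.5.2b. Per the labels' protocols, total RNA was randomly primed, libraries were strand-specific and ribosomal RNA was depleted. In a library, 6.94% to 8.66% of genes held fractional expected counts, since RSEM shares reads between genes.

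Expected counts were rounded, genes kept by filterByExpr (15896), scaled by TMM and fitted with edgeR 4.0.16 in R 4.3.3 (robust quasi-likelihood, all 9 libraries, no covariate). P-values were 2-sided with Benjamini-Hochberg adjustment over all tested genes at 0.05, and SE stands for a log2 fold change's standard error. Highest or lowest in 1 subset took the larger p of its comparisons, adjusted over all genes, and a log2 fold change of at least 1 in both. Levels are CPM after TMM scaling, or the deposited TPM between genes; the deposited FPKM values were not tested. TPM uses an effective length that RSEM estimates in each library, so a gene's TPM can vary with its isoform estimate where its CPM does not. The fit was tested on simulated data. Values in every library are given for members called with a log2 fold change of at least 1 and a mean of at least 5 CPM, or among the 5 highest TPM in a subset, and for a few others; of each other list, up to 4 called genes with the smallest p are named, except 1 that is not reported here. Clock, Arntl, Fos, Fosb and Egr1 were picked for naming once values had been seen. The members and lists were chosen with earlier results of these data known. Intervals cover counting error only.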

Additional observations from a re-analysis of the deposited data

How the results depend on the processing

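Scaling by DESeq2 size factors or upper quartiles, other filters, DESeq2 1.42.0, a fit of the compared subsets alone, a replicate block, and fits without single libraries were tried, and no member changed direction past the test. Over these, 1478 member fold changes kept their side of the threshold, 29 gained a call and 52 lost one. Leaving out 1 library gave 7 to 13 members called for beta against alpha, 12 to 16 for beta against delta, 11 to 16 for alpha against delta, and 5 to 10 highest or lowest in 1 subset; the lowest values of the first and last, 7 and 5, came without beta library 1. Genes called over all genes ran from 3210 to 4997, 3909 to 5260 and 3090 to 4334. Without beta library 2 and delta library 3 together, 9, 14 and 14 members were called, 7 were highest or lowest in 1 subset, and Nr1h4 was no longer called against delta (adjusted p = 0.0797 for beta, 0.106 for alpha). Upper-quartile scaling gave 1959 genes higher and 2348 lower in beta than in alpha, against 2345 and 1886 with TMM, and 2122 and 2724 for beta against delta, against 2442 and 2427; members for beta against alpha were then 5 higher and 5 lower. Same-numbered libraries share a replicate number and consecutive codes in their titles. Of 9 same-numbered pairs, 1 correlated above 0.1 (0 to 0.13), while pairs with unlike numbers ran from -0.12 to 0.03. In both other subsets, 7 of 9 libraries correlated best with their own number, a hint from the data and not the design. With the replicate block 14, 16 and 18 members were called and 11 were highest or lowest in 1 subset; Nr4a1 was then called (adjusted p = 1.37e-05 for beta over alpha and 3.43e-05 for alpha over delta), and the immediate early genes called were 10, 10 and 11. At this depth 16 members had at most 57 counts in all and were not tested.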
